A study of Rattus norvegicus with 18 samples.

Results

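The genes described here are 10 members of the NF-κB system: the transcription factor genes Nfkb1, Nfkb2, Rel, Rela and Relb, the genes of the inhibitor IκBα (Nfkbia) and of the nuclear IκB proteins Nfkbid, Nfkbiz and Bcl3, and Tnfaip3, the gene of the ubiquitin-editing enzyme A20. They were chosen by symbol and all 10 were found among the 32882 genes of each of 3 tables of rat 3′ mRNA-seq. The libraries came from CD4+ T-MBP cells, Lewis rat T cells specific for myelin basic protein (MBP), which were restimulated with MBP, transferred into Lewis rats, and isolated on day 3 after transfer. Each of 6 groups held 3 libraries: Ets1-KO cells and their control from the spinal cord parenchyma, Ets1-KO cells and their control from the spleen, and Grk2-KO cells and a separate control from the spleen. Controls carried a non-targeting guide (NT) and BFP and are given as WT in the labels, whereas KO cells carried a guide against Ets1 or Grk2 and GFP, and all were sorted by that fluorescence. The guides were electroporated with Cas9 protein, so that a library can hold unedited cells. For the parenchyma, Ets1-KO and control cells had been transferred together into the same rats, but no label says which libraries share a rat. The hosts kept their own immune cells. Each table held 1 tissue and 1 edited gene, so tissue and table cannot be told apart.

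NF-κB factors bind DNA as dimers and are held in the cytoplasm of resting T cells by IκB proteins. Signals from the T cell receptor, CD28 and TNF receptor family members activate the IKK kinase, which marks IκBα for degradation and so releases the dimers. Nfkbia, Tnfaip3, Nfkb2, Rel and Bcl3 are themselves known NF-κB targets, and their products feed back on the pathway, IκBα and A20 as brakes. Nfkbiz, Nfkbid and Bcl3 encode atypical IκB proteins that act in the nucleus together with NF-κB subunits.

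Between 898092 and 2248258 reads fell on genes per library. In the Ets1 spleen table the libraries labelled Ets1-KO held more reads (1909862 to 2248258) than their controls (898092 to 1213485). The share of reads on mitochondrially encoded genes was 25.4 to 27.4% in the parenchyma and 14.1 to 22.6% in the spleen, and in the spleen Ets1-KO libraries it was 14.1%, 14.9% and, in replicate 3, 21%. Grk2 itself was lower in Grk2-KO than in NT libraries (log2 fold change −1.22, SE 0.13, adjusted p = 1.76e-12 from limma). This call was lost in 2 of 12 alternative settings, and the largest adjusted p from limma over left-out replicates was 0.053. The log2 fold change stayed between −1.49 and −1.03. Ets1 mRNA was not lower in the libraries labelled Ets1-KO, with log2 fold changes of 0.09 (adjusted p = 0.56) in the parenchyma and −0.06 (adjusted p = 0.854) in the spleen, and reads from 3′ ends do not show an edit elsewhere in the transcript, so this does not check the labels. All 10 T cell markers examined were detected in every group and summed to between 3069 and 3847 RPM (reads of a gene per 1000000 reads on genes). Summed over their lists, 12 myeloid markers stood at 64.3 to 124 and 10 B cell markers at 2.04 to 9.89 RPM, and 8 microglial and CNS markers at 38.5 to 67.3 in the parenchyma and 21.6 to 36.5 in the spleen. Among these, C1qc was at 0 in all spleen groups and P2ry12 at 0 in both parenchyma groups.

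Of the 10 genes, 9 were matched to promoters from RefSeq (assembly GRCr8), taken as the 250 bases before the gene's start. The κB consensus, the 10-base site bound by NF-κB dimers, was searched on both strands, and overlapping matches were merged. It was found in 6 of these 9 genes (Nfkb2, Rel, Nfkbia, Nfkbiz, Tnfaip3 and Bcl3) and in 6.92% of the 27457 genes with such a window. An ETS core, CCGGAA on either strand, was found in 1 of the 9, Rela, against 14.1% of all genes, and overlapped no κB match. Nfkb1 and Nfkbid had neither motif in these windows. The last 100 bases before the start are shown for the 6 genes with a κB match and for Nfkb1, which had none. Each is given 5′ to 3′ on the gene's strand, with κB matches in capitals. A match is a description of the letters and not a measured binding site.
Nfkb2, chr1:255108274-255108373 (+): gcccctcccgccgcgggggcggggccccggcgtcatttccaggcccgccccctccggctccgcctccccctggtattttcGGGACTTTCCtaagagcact
Rel, chr14:101921939-101922038 (-): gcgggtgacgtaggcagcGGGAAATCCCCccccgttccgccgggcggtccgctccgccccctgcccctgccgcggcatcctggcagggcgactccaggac
Nfkbia, chr6:78597073-78597172 (-): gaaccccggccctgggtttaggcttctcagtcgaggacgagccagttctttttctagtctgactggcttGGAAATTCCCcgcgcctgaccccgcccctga
Nfkbiz, chr11:58251621-58251720 (+): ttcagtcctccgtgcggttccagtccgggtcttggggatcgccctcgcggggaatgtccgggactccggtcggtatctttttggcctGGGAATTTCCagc
Tnfaip3, chr1:15543980-15544079 (-): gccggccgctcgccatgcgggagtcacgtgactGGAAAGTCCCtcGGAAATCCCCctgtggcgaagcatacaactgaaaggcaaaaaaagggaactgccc
Bcl3, chr1:88613556-88613655 (-): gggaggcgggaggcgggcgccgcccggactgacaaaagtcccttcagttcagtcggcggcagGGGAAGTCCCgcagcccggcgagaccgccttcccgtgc
Nfkb1, chr2:226805463-226805562 (-): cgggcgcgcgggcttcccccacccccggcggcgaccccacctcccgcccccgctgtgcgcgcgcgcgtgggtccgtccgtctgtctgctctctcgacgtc
The match nearest to a start was that of Nfkbiz, 13 to 4 bases before it, followed by Nfkb2 (20 to 11 bases) and Nfkbia (31 to 22 bases). Tnfaip3 held matches 67 to 58 and 55 to 46 bases before the start, and another farther out, at 170 to 161 bases. Rel held its nearer match at 82 to 72 bases and another at 219 to 209 bases, and these farther matches lie outside the stretches shown.

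The first question was whether NF-κB genes differed between tissues in control cells. Levels are given in RPM, from whole reads recovered from the deposited values, and are described without a test. In the parenchyma, 5 of the 8 genes that passed a mean of 10 RPM over both groups lay above all spleen controls of the Ets1 table without overlap, and 0 lay below. Among the 5, Nfkbid passed this minimum only through its parenchyma level (mean 14.7 RPM, against 8.94 in the spleen), so the minimum favoured its place in this count. Over all genes, 19.6% were higher and 30.3% lower without overlap in this comparison. The second set of spleen controls, those of the Grk2 table, changed this picture for Nfkb2, Rel and Nfkbia, whose ranges then overlapped with the parenchyma, but not for Nfkbid and Bcl3. A lower level in bulk RNA can mean fewer expressing cells or less RNA per cell, which cannot be told apart.

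**Figure D1:**
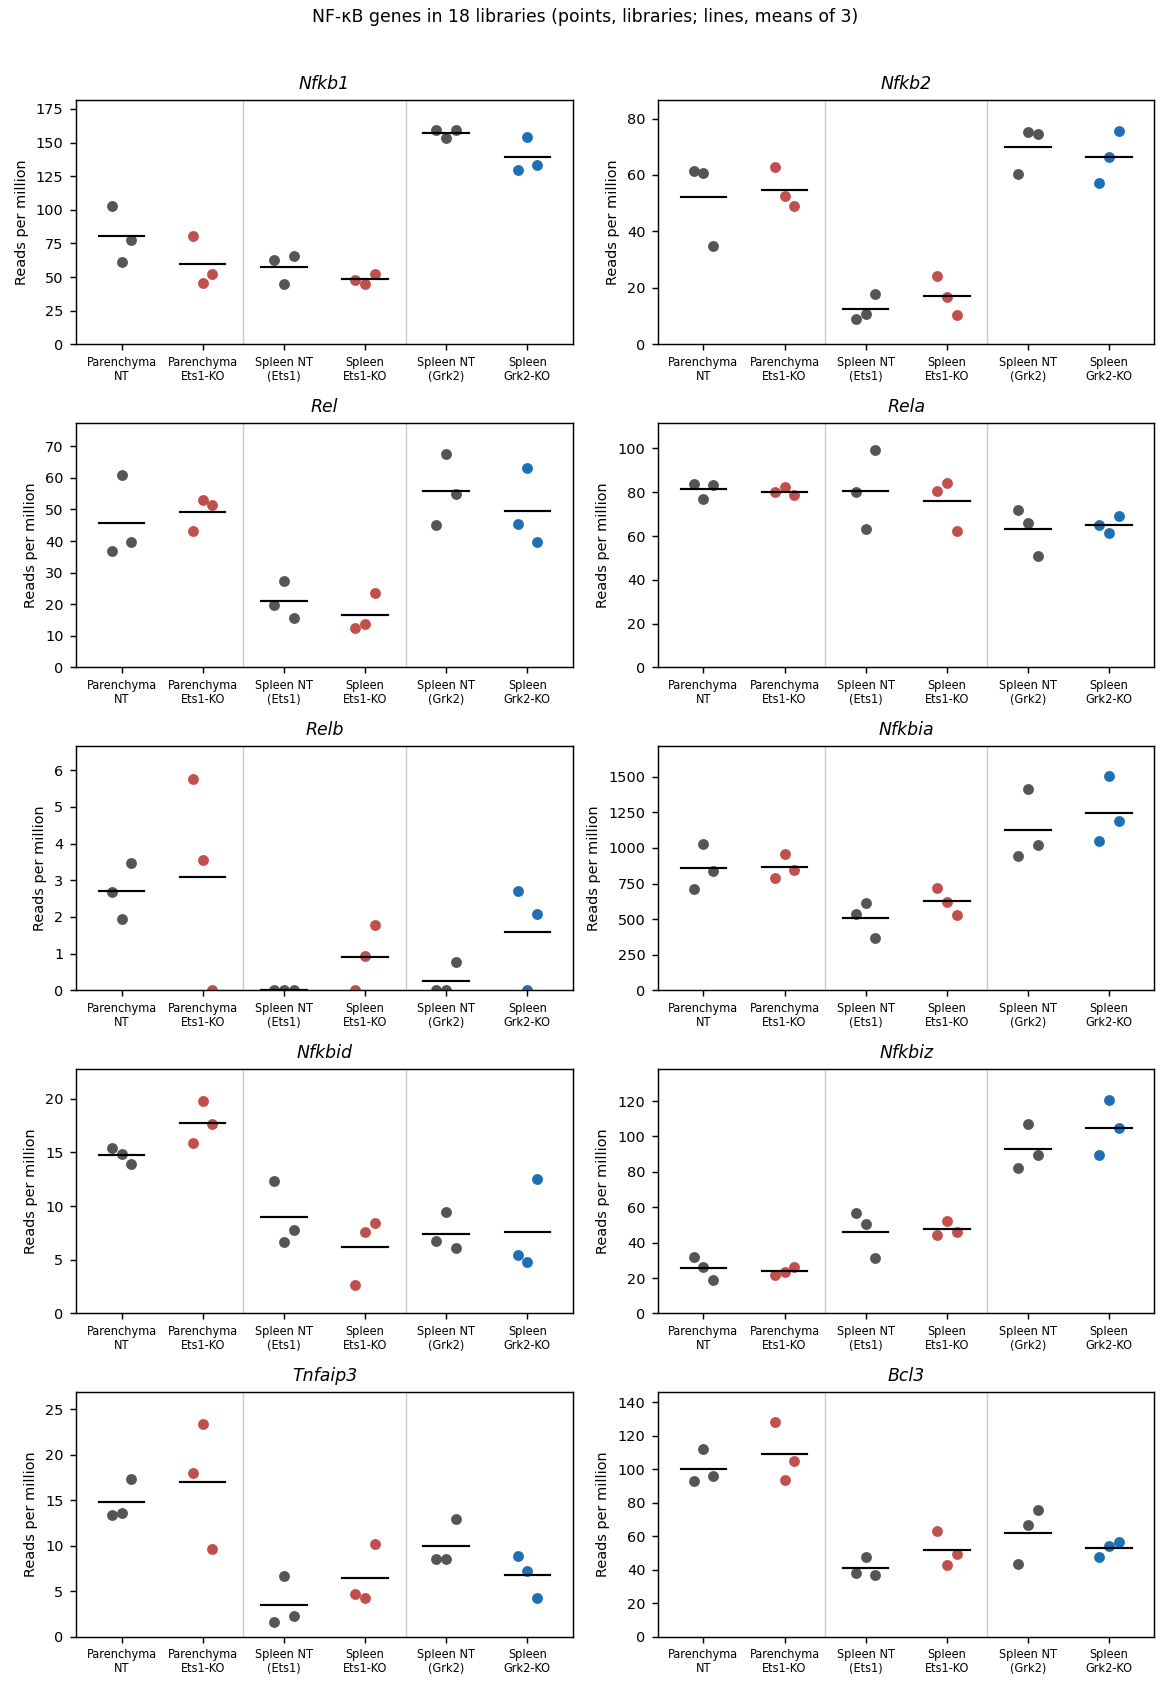
Level of each of the 10 genes (y axis, RPM) in the 6 groups (x axis), with 1 point per library and a line at the mean of 3 libraries. Grey points are NT controls, red points Ets1-KO and blue points Grk2-KO. The spleen groups of the Grk2 table stand far above those of the Ets1 table for Nfkb1, Nfkb2, Rel, Nfkbia and Nfkbiz. The means of the parenchyma groups are highest for Nfkbid and Bcl3 and, on fewer reads, for Tnfaip3 and Relb.

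Nfkb2, the gene of the p100 precursor of the alternative NF-κB pathway (chromosome 1, 266053001 to 266059256, plus strand of Rnor_6.0), had 61.5, 60.8 and 34.8 RPM in the 3 parenchyma controls. It had 9.06, 10.8 and 17.8 RPM in the spleen controls of the Ets1 table and 60.2, 75.3 and 74.6 in those of the Grk2 table. The parenchyma mean was thus 4.17 times that of the first set of spleen controls, without overlap, and 0.748 times that of the second, with overlapping ranges. The 2 sets of spleen controls differed by 5.57-fold, more than either differed from the parenchyma.

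Rel, the gene of c-Rel, the subunit known for its part in T cell activation (chromosome 14, 108491068 to 108509892, minus strand), followed the same order. Its level was 36.8, 60.8 and 39.7 RPM in parenchyma controls, 19.8, 27.5 and 15.6 in the spleen controls of the Ets1 table, and 45.0, 67.6 and 54.8 in those of the Grk2 table. The parenchyma mean was 2.18 times the first spleen mean without overlap and 0.82 times the second with overlap.

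Nfkb1, the gene of the p105 precursor of p50 (chromosome 2, 240773455 to 240866689, minus strand), was highest in the spleen controls of the Grk2 table, at 159, 153 and 159 RPM. The parenchyma controls had 103, 61.4 and 77.2, and 62.6, 45.0 and 65.7 were found in the spleen controls of the Ets1 table, and these groups overlapped. The Grk2-table controls were 2.72-fold above the other spleen controls and 1.95-fold above the parenchyma, without overlap in either case.

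Rela, the gene of the p65 subunit (chromosome 1, 220992769 to 221003249, plus strand), had the smallest differences between control groups among the 9 genes with enough reads. Its control level was 83.6, 77.0 and 83.5 RPM in the parenchyma, 79.9, 63.3 and 99.1 in the spleen of the Ets1 table and 72.1, 65.9 and 51.0 in the spleen of the Grk2 table. Parenchyma and spleen means of the Ets1 libraries differed by 1.01-fold with overlap, and the parenchyma lay above the Grk2-table controls by 1.29-fold without overlap.

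Relb, the partner of p52 in the alternative pathway (chromosome 1, 80517410 to 80544825, minus strand), was the lowest of the 10 genes and under the minimum mean. It had 4, 3 and 5 reads in the parenchyma controls, 0 in each of the 3 spleen controls of the Ets1 table, and 0, 0 and 1 in those of the Grk2 table. A count of 0 over the first set of spleen controls allows up to 3 reads in the group, or 0.906 RPM. The parenchyma controls had 1.94 to 3.48 RPM, and their pooled level of 2.68 RPM was 2.96-fold above that limit. The limit covers the counting error of the spleen reads only and not that of the 12 parenchyma reads, so this ratio is not a lower bound. In the KO libraries the groups overlapped, with 8, 5 and 0 reads in the parenchyma and 0, 2 and 4 in the spleen of the Ets1 table.

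Among the feedback genes, Nfkbia (chromosome 6, 76267227 to 76270457, minus strand) had 713, 1030 and 838 RPM in parenchyma controls. It had 539, 612 and 367 in the spleen controls of the Ets1 table and 943, 1411 and 1017 in those of the Grk2 table. The parenchyma mean was 1.70 times the first spleen mean without overlap and 0.765 times the second with overlap, the same order as for Nfkb2 and Rel.

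Bcl3, whose product binds p50 and p52 homodimers in the nucleus (chromosome 1, 80730498 to 80744831, minus strand), was higher in the parenchyma than in either set of spleen controls. Parenchyma controls had 92.9, 112 and 96.0 RPM, against 37.9, 47.5 and 36.7 in the spleen of the Ets1 table and 43.3, 66.8 and 75.3 in the spleen of the Grk2 table. The means differed by 2.46-fold and 1.62-fold, without overlap.

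Nfkbid, the gene of IκBNS (chromosome 1, 88885936 to 88892615, plus strand), also lay above all 6 spleen controls, at 15.4, 14.9 and 13.9 RPM in the parenchyma. The spleen controls had 12.4, 6.66 and 7.79 in the Ets1 table and 6.79, 9.42 and 6.09 in the Grk2 table, from 7 to 15 reads per library. The means differed by 1.65-fold and 1.98-fold. Bcl3 and Nfkbid were thus 2 of the 8 genes passing the minimum that were above all 6 spleen controls, where 10.3% of all genes were, and 0 of the 8 lay below all 6, where 15.7% of all genes did. Nfkbid passed the minimum only through the parenchyma, as its spleen means were 8.94 and 7.43 RPM. The minimum therefore favoured its being counted as higher.

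Tnfaip3 (chromosome 1, 14402912 to 14412807, minus strand) had 13.4, 13.6 and 17.4 RPM in parenchyma controls. The spleen controls had 1.65, 6.66 and 2.23 in the Ets1 table and 8.48, 8.56 and 12.9 in the Grk2 table, and over these 9 libraries it was below the minimum mean. The parenchyma was above all 6 spleen controls, by 4.21-fold and 1.48-fold in the means, on counts of 2 to 25 reads.

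Nfkbiz, the gene of IκBζ, known in T helper cells for its role in IL-17 production (chromosome 11, 47243341 to 47271487, plus strand), went in the other direction. It had 32.1, 26.5 and 18.8 RPM in parenchyma controls, 56.9, 50.8 and 31.2 in the spleen of the Ets1 table and 82.3, 107 and 89.8 in the spleen of the Grk2 table. The spleen means were 1.79-fold higher, with overlap of 1 library, and 3.61-fold higher, without overlap.

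Against the Grk2-table controls, the parenchyma was higher without overlap for 4 of the 9 genes passing the minimum (Rela, Nfkbid, Tnfaip3 and Bcl3) and lower for 2 (Nfkb1 and Nfkbiz), where 27.3% of all genes were higher and 37.4% lower. Nfkbid and Tnfaip3 passed the minimum here only through the parenchyma, with Grk2-table means of 7.43 and 9.99 RPM. Between the 2 sets of spleen controls, 5 of 7 genes were higher in the Grk2 table without overlap (Nfkb1, Nfkb2, Rel, Nfkbia and Nfkbiz) and 0 were lower, against 30.1% and 31.5% of all genes. Between these control cells of 1 tissue, 61.7% of all genes were without overlap in either direction. The share was 49.9% for parenchyma and spleen of the Ets1 libraries and 64.6% for parenchyma and the Grk2-table spleen. Nfkbid and Bcl3 overlapped between the 2 sets of spleen controls, although the parenchyma lay above each set without overlap.

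The KO libraries were not used in the comparison of controls and are given beside it. Between the spleen KO libraries, 5 of the 7 genes passing the minimum were higher in the Grk2 table without overlap and 0 lower (33.4% and 30.1% of all genes), by 3.90-fold for Nfkb2, 2.97-fold for Rel, 2.88-fold for Nfkb1, 2.21-fold for Nfkbiz and 2.00-fold for Nfkbia. In parenchyma against spleen Ets1-KO libraries, Nfkb2, Rel, Nfkbia, Nfkbid and Bcl3 were higher and Nfkbiz lower among 9 genes that passed, with 20.4% and 34.5% of all genes. Nfkbid and Bcl3 were above, and Nfkbiz below, all 6 spleen KO libraries, where 10.8% of all genes were above and 19.4% below. In these parenchyma comparisons Nfkbid passed the minimum only through the parenchyma, with spleen KO means of 6.22 and 7.59 RPM. The same was true of Tnfaip3 (6.40 and 6.73 RPM). Against the Grk2-table KO libraries, Rela, Nfkbid, Tnfaip3 and Bcl3 were higher in the parenchyma and Nfkb1, Nfkbia and Nfkbiz lower, 4 and 3 of 9 genes, where 26.6% and 39.5% of all genes were. Nfkbia had overlapped between the corresponding controls. Tnfaip3, above all 6 spleen libraries in the controls, overlapped in the KO libraries of the Ets1 table (9.62 to 23.4 RPM in the parenchyma, 4.27 to 10.2 in the spleen), and its ratio between the spleen tables was 1.05 in KO against 2.85 in NT libraries. KO and control libraries of a table share its processing, so they are not an independent repeat of the tissue comparison. Where Grk2-table KO libraries enter, Ets1-KO cells are set against Grk2-KO cells, so the edited gene differs along with the table. These differences cannot be told apart.

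**Figure D2:**
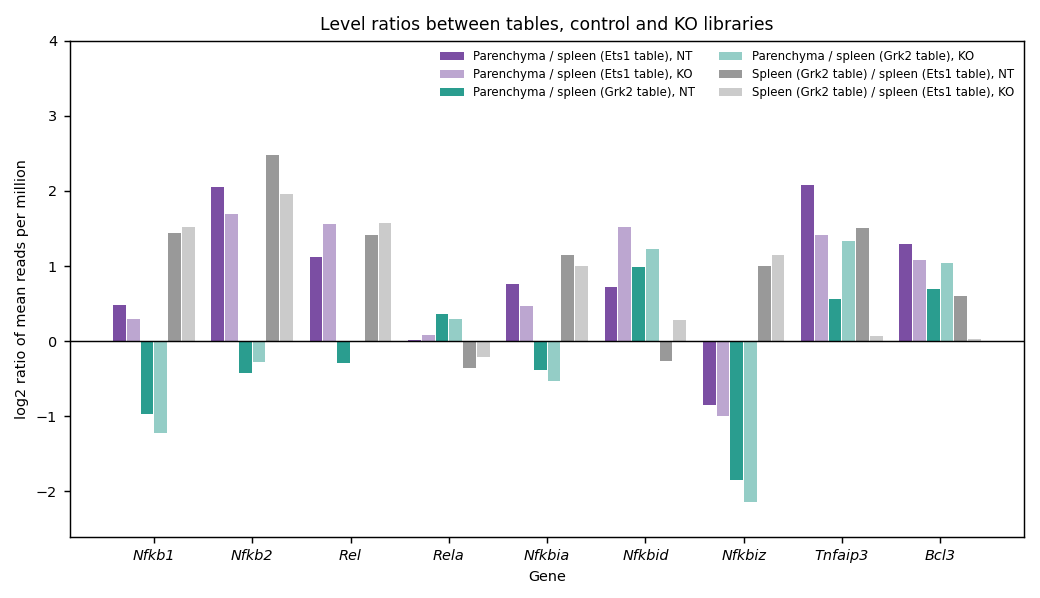
The log2 ratio of mean RPM (y axis) between tables for 9 of the genes (x axis), Relb left out for its low counts; full colours are NT and pale colours KO libraries, and each mean is over 3 libraries. Both parenchyma-to-spleen ratios are above 0 for Nfkbid, Bcl3, Tnfaip3 and Rela, and both are below 0 for Nfkbiz. For Rela the NT ratio to the Ets1 table is only 0.0102. For Nfkb1, Nfkb2, Rel and Nfkbia the sign of the parenchyma-to-spleen ratios depends on the spleen table, although the KO ratio of Rel to the Grk2 table is only −0.00589. KO ratios that involve the Grk2 table set Ets1-KO and Grk2-KO libraries against each other.

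The rest of the pathway was described by 4 lists, which were chosen with earlier results of these data known. Of the 15 NF-κB target genes that passed the minimum, parenchyma controls were higher without overlap for 8 (53.3%) and lower for 1 against the spleen controls of the Ets1 table (19.6% and 30.3% of all genes), with a median log2 ratio of 1.07 against −0.11 over all genes. Against the Grk2-table controls 6 of 15 (40%) were higher and 6 lower, where 27.3% and 37.4% of all genes were, with a median of −0.05 against −0.11 over all genes. Between the spleen controls, 9 of 15 targets were higher in the Grk2 table and 3 lower (median 0.70, against −0.00229 over all genes), and 6 of 12 other inhibitors and deubiquitinases were higher and 1 lower, where 30.1% and 31.5% of all genes were. These inhibitors were higher in the parenchyma for 6 of 14 and lower for 2 against the Ets1-table controls, and higher for 3 of 13 and lower for 5 against the Grk2-table controls. Of 13 receptors and adaptors, parenchyma controls were higher for 5 and lower for 4 against the Ets1-table controls (median log2 ratio 0.15) and higher for 8 and lower for 4 against the Grk2-table controls (median 0.36). The IKK kinases and adaptors had a median log2 ratio of −0.12 between parenchyma and spleen controls of the Ets1 libraries, close to that of all genes, with 4 higher and 4 lower of 20. Against the Grk2-table controls 4 were higher and 8 lower of 20, with a median of −0.40.

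The genes whose level followed that of Nfkbia most closely over the 18 libraries were Gabarapl2 (r = 0.953), Selenos (0.933), Ier5 (0.926), Hspa13 (0.923) and LOC100909712 (0.921), among 6207 genes. For Tnfaip3 they were Dusp16 (r = 0.861), Cnot1 (0.86), Strn3 (0.858), Prpf39 (0.857) and Ccnd2 (0.851). These correlations are of log2(RPM + 1) and describe libraries that share tables, which differ from each other in many genes.

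The second question was whether loss of Ets1, a transcription factor of T cells, or of Grk2, a kinase that desensitizes G-protein-coupled receptors, changed these genes. Each KO was compared with NT within its table by limma on log2(normalized count + 1), with p-values adjusted by Benjamini-Hochberg over all genes tested. In the parenchyma, 1 of the 9 genes tested passed an adjusted p of 0.05, Nfkb1, which was lower in the libraries labelled Ets1-KO; 5.23% of all 7002 genes passed and 2.96% passed as lower. Nfkb1 was also the only 1 of the 9 at an unadjusted p under 0.05, as were 16.9% of all genes. In the spleen, 0 of 8 passed for Ets1-KO (2.22% of 6979 genes) and 0 of 8 for Grk2-KO (1.56% of 6985 genes), with 1 gene, Nfkbia, at an unadjusted p under 0.05 in each, as were 14.1% and 10.4% of all genes. Relb was under the minimum mean of 10 normalized counts in every table, Tnfaip3 in the Ets1 spleen table and Nfkbid in the Grk2 table.

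**Figure D3:**
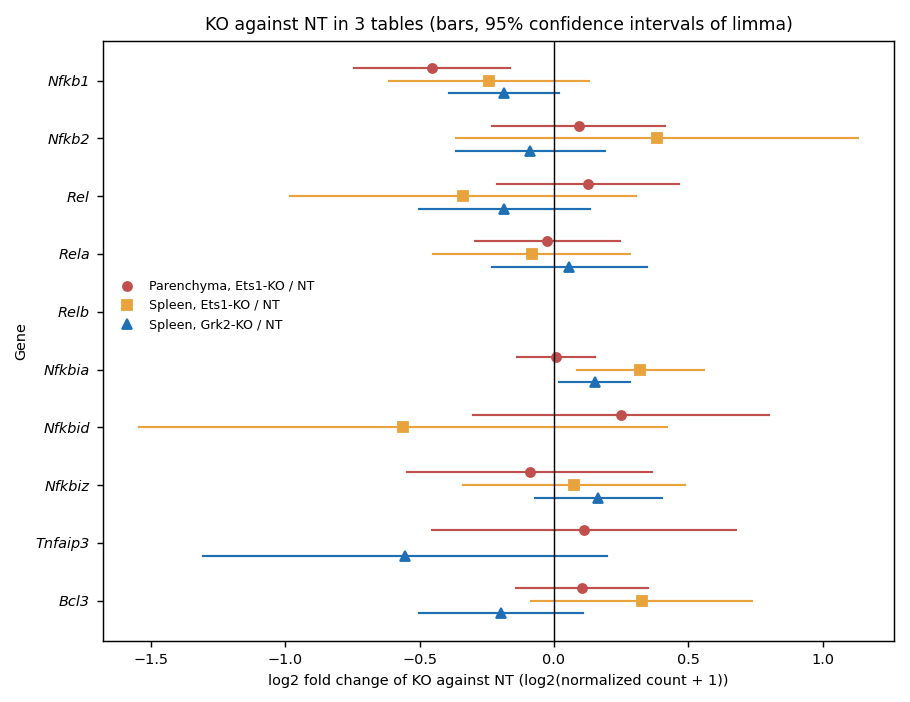
The log2 fold change of KO against NT (x axis) for each gene (y axis) in the 3 tables, with 95% confidence intervals from limma; genes under the minimum mean have no symbol. Nfkb1 is to the left of 0 in all 3 tables, with an interval that leaves out 0 in the parenchyma, and Nfkbia is to the right of 0 with such intervals in both spleen tables.

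Nfkb1 had 144, 89.3 and 109 normalized counts in the parenchyma controls and 113, 64.7 and 73.7 in the libraries labelled Ets1-KO. The ranges overlapped, and each Ets1-KO library was below the control of the same number. The mean went from 114 ± 27.6 to 83.9 ± 25.8 (SD, n = 3). The log2 fold change was −0.45 (SE 0.15, adjusted p = 0.0442 from limma), while p was 0.3 by the exact permutation test, two-sided. Unlike the limma fit, the permutation test ignores the replicate numbers. All 3 pairs lay on 1 side of 0 for 37.2% of the genes tested in the parenchyma. With no replicate block the adjusted p was 0.205, and edgeR gave 0.0723 and DESeq2 0.837, so the call was lost in 10 of 13 alternatives, each of the 3 left-out replicates included (0.145 to 0.239), although the log2 fold change stayed between −0.51 and −0.40. In the spleen, Nfkb1 had 83.1, 58.1 and 92.5 normalized counts in NT and 62.3, 58.9 and 73.1 in Ets1-KO libraries (log2 fold change −0.24, SE 0.18, adjusted p = 0.593), and 204, 198 and 211 in NT and 167, 200 and 174 in Grk2-KO libraries (−0.19, SE 0.10, adjusted p = 0.525). It was lower in KO in 7 of 9 same-numbered pairs over the 3 tables, as were at least that many pairs for 12.8% of the 6207 genes passing in all tables. This share was taken at the count and in the direction of Nfkb1 itself, over pairs of both edited genes and both tissues, so it is a description only. The difference between the Ets1 effects in parenchyma and spleen was −0.21 on the log2 scale (95% interval −0.68 to 0.25, adjusted p = 0.752).

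**Figure D4:**
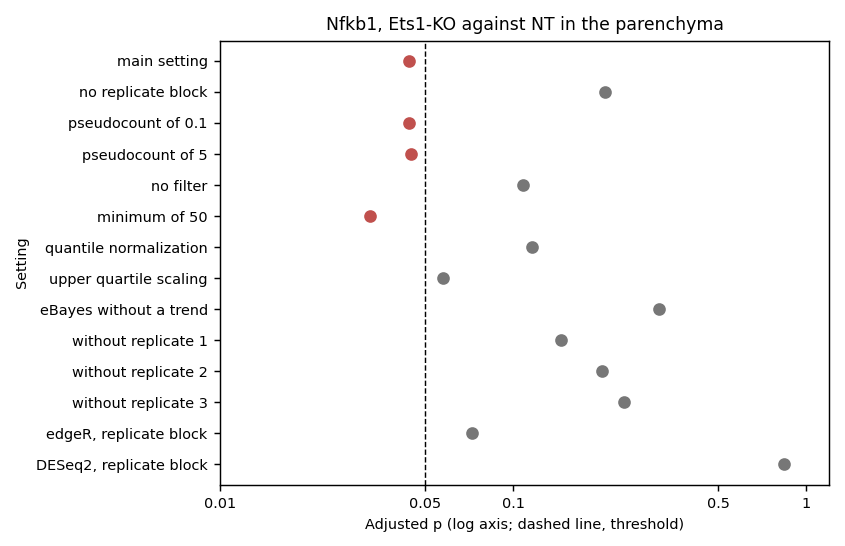
Adjusted p of Nfkb1 in the parenchyma (x axis, log scale) under the main setting and 13 alternatives (y axis), with a dashed line at the threshold of 0.05 and points below it in red. The main setting and 3 alternatives, both pseudocounts and the minimum of 50, are below the line.

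Nfkbia had 715, 791 and 517 normalized counts in spleen NT and 942, 812 and 747 in the spleen libraries labelled Ets1-KO, which overlapped. The log2 fold change was 0.32 (SE 0.12, 95% interval 0.08 to 0.56), with an adjusted p of 0.176 from limma, higher in 3 of 3 pairs, where 35.2% of all genes had their 3 pairs in 1 direction. Without replicate 2 the adjusted p from limma was 0.0217, but it was 0.796 without replicate 1 and 0.435 without replicate 3. Of 13 alternatives, only 1 passed. In the Grk2 table it had 1205, 1828 and 1353 normalized counts in NT and 1352, 1951 and 1548 in Grk2-KO (log2 fold change 0.15, SE 0.07, adjusted p = 0.378), again higher in 3 of 3 pairs (31.3% of all genes in 1 direction). Parenchyma values were 997, 1497 and 1183 in NT and 1103, 1365 and 1196 in Ets1-KO (log2 fold change 0.01, 95% interval −0.14 to 0.15). Over the 3 tables it was higher in 8 of 9 pairs, as were at least that many pairs for 3.91% of all genes. This share was taken at the count and in the direction of Nfkbia itself, over pairs of both edited genes and both tissues, so it is a description only. The Ets1 effect was thus 0.31 lower in the parenchyma than in the spleen on the log2 scale, a difference that did not pass (95% interval −0.59 to −0.03, adjusted p = 0.29).

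Nfkbid was the only one of the 10 genes whose KO and NT libraries did not overlap in any table, and this was in the parenchyma. Such groups without overlap were seen for 18.4% of the genes tested there and for 16.9% and 12.2% in the Ets1 and Grk2 spleen tables. It had 21.5, 21.6 and 19.7 normalized counts in parenchyma NT and 22.2, 28.3 and 24.9 in Ets1-KO libraries, with a log2 fold change of 0.25 (SE 0.28, adjusted p = 0.723) and a permutation p of 0.1, the smallest that 3 against 3 libraries allow. In the spleen it had 16.4, 8.61 and 11.0 in NT and 3.42, 9.92 and 11.9 in Ets1-KO libraries, and replicate 1 alone carried the lower mean.

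For the other members no difference was detected, and intervals from limma are given. They rest largely on the variance trend over all genes, and wholly so in the parenchyma. They can thus be narrower or wider than the spread of a gene's own pairs and do not show what size could be excluded. In the parenchyma, the log2 fold changes were 0.09 for Nfkb2 (95% interval −0.23 to 0.42), 0.13 for Rel (−0.21 to 0.47), −0.03 for Rela (−0.30 to 0.24) and 0.10 for Bcl3 (−0.14 to 0.35). The low-count genes were less precise there, at −0.09 for Nfkbiz (−0.55 to 0.37) and 0.11 for Tnfaip3 (−0.45 to 0.68). In the spleen, Bcl3 had 50.3, 61.3 and 51.7 normalized counts in NT and 82.2, 55.8 and 69.3 in Ets1-KO libraries (log2 fold change 0.33, adjusted p = 0.486). In the Grk2 table it had 55.3, 86.5 and 100.2 in NT and 61.1, 70.4 and 73.7 in KO libraries (−0.20, adjusted p = 0.715). The difference between these effects was 0.52 (95% interval −0.00241 to 1.05, adjusted p = 0.388).
Tnfaip3 in the Grk2 table had 10.8, 11.1 and 17.2 in NT and 11.4, 9.32 and 5.46 in KO libraries, with an interval from −1.31 to 0.20. Across the members the median log2 fold change was 0.09 in the parenchyma, −0.00335 in the Ets1 spleen table and −0.14 in the Grk2 table, beside −0.03, 0.000389 and 0.02 over all genes tested. Differences between KO effects passed for 0 of 8 members between tissues (2.1% of 6520 genes) and 0 of 7 between Ets1 and Grk2 in the spleen (1.94% of 6490 genes), with 1 member (Nfkbia) and 0 members at an unadjusted p under 0.05, against 13.8% and 12.9% of all genes.

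Genes of the 4 pathway lists were read from the same fits. The lists were chosen with earlier results of these data known, so their shares beside those of all genes are a description only. Among 16 NF-κB target genes tested in the parenchyma, 5 were higher and 1 lower in the libraries labelled Ets1-KO, against 2.27% and 2.96% of all genes, and the median log2 fold change was 0.26 against −0.03. The 5 were the chemokine genes Ccl4, Ccl3 and Ccl5, Il2ra, the gene of the high-affinity IL-2 receptor chain, and Bcl2a1, a survival gene. Ccl4 had 1477, 996 and 1023 normalized counts in NT and 2178, 1488 and 1759 in Ets1-KO libraries (log2 fold change 0.64, adjusted p = 4.63e-16 from limma), and Il2ra 668, 638 and 667 against 1044, 1031 and 958 (0.62, adjusted p = 1.89e-12). Ccl3 (log2 fold change 0.60, adjusted p = 3.27e-08), Ccl5 (0.38, adjusted p = 2.95e-06) and Bcl2a1 (0.66, adjusted p = 0.00306) followed. Traf1, the gene of a TNF receptor adaptor, was lower, at 105, 72.4 and 104 in NT and 67.7, 60.7 and 66.9 in Ets1-KO (log2 fold change −0.50, adjusted p = 0.0409), a call lost in 10 of 13 alternatives.

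Of the 14 receptors and adaptors tested in the parenchyma, Tnfrsf9, the gene of the costimulatory receptor 4-1BB, and Myd88, the adaptor of Toll-like and IL-1 receptors, were higher. Tnfrsf9 had 239, 212 and 180 normalized counts in NT and 693, 743 and 877 in Ets1-KO libraries, a log2 fold change of 1.87 (SE 0.09, adjusted p = 6.6e-86), and Myd88 a log2 fold change of 0.58 (adjusted p = 7.2e-07). Tnfrsf4, the gene of OX40, was lower (−0.50, adjusted p = 0.00403). In the other lists 1 of 20 IKK kinases and adaptors, Sharpin, a subunit of the linear ubiquitin ligase, was lower (−0.52, adjusted p = 0.00864), and 1 of 14 further inhibitors, Tnip1, an A20-binding protein (−0.35, adjusted p = 0.00655). These shares, 5% and 7.14%, were near the 5.23% of all genes called in either direction. All of these calls except Tnfrsf9, Myd88, Il2ra, Ccl3, Ccl4 and Ccl5 were lost in 3 or more of 13 alternatives, and these 6 were lost in 1, without the variance trend. Beside these parenchyma values, reads of the CD8 T cell marker Cd8a were higher in Ets1-KO libraries (4.01 to 7.20 RPM) than in NT (0 to 2.67), while Cd8b was at 0 in all 6 groups; their part in the result was not tested.

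In the spleen, the libraries labelled Ets1-KO were higher for 1 of 15 targets (1.02% of all genes), Ccl5, at 882, 963 and 871 normalized counts in NT and 1534, 1709 and 1491 in KO (log2 fold change 0.80, adjusted p = 0.000166, and 0.182 without replicate 1), and for 1 of 19 kinases and adaptors, Ikbke (0.61, adjusted p = 0.0484), which was lost in 7 of 12 alternatives. In Grk2-KO cells 2 of 13 targets were lower (0.63% of all genes), Ccl5 at 356, 571 and 628 in NT and 341, 301 and 362 in KO (log2 fold change −0.59, adjusted p = 3.2e-07) and Il2ra (−0.42, adjusted p = 0.00512). Also lower were Tnfrsf18, the gene of GITR, 1 of 11 receptors (−0.60, adjusted p = 0.00462), and Prkcq, the kinase PKCθ that links the T cell receptor to IKK, 1 of 20 (−0.39, adjusted p = 0.033). Without replicate 2 none of these 4 passed, with adjusted p values from 0.451 to 0.486, and with no replicate block none passed, Ccl5 at 0.0684. In this table the 12 myeloid markers summed to 89.3 to 124 RPM in Grk2-KO libraries and 74.6 to 86.5 in NT, with C1qa, C1qb and C1qc at 0 in both, and their part in these results was not tested.
The other inhibitors and deubiquitinases had 0 of 13 and 0 of 12 called in the spleen tables.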

How the data were processed

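RNA of sorted T-MBP cells was sequenced from the 3′ ends of transcripts (Collibri 3′ mRNA kit) in 18 libraries. According to the methods and the submitters' processing notes, the authors aligned reads to Rnor_6.0 with STAR 2.7.2b, counted them per gene with HTSeq 1.0.0 and divided the counts by DESeq2 2.11.40.7 size factors (poscounts). The deposited values are therefore a signal per gene and library, a normalized count, scaled within each of 3 tables. All positive values (100%) were whole multiples of 1 step per library within a tolerance of 0.01, from which whole reads were recovered. They corrected for the animal where applicable, and the parenchyma Ets1-KO and control cells are described as co-transferred, so the replicate number was used as a block although no label ties it to an animal. Groups came from the sample labels, which do not state that replicates came from separate animals, so p-values speak of these libraries and not of animals. Those from limma rest largely on a variance trend over all genes. In the parenchyma they rest wholly on it, and a gene's own spread between libraries did not enter them.

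Genes with a mean of at least 10 normalized counts were tested on log2(normalized count + 1), a pseudocount that understates changes of low genes, with limma 3.58.1 (eBayes with a trend) in R 4.3.3, replicate number as a block, two-sided, Benjamini-Hochberg adjusted over all genes. With 2 residual degrees of freedom, the fits rest largely on the trend, and the prior degrees of freedom were 22 and 141 in the spleen tables and infinite in the parenchyma. KO effects were compared between tables with limma on the log2 ratios of same-numbered libraries. Single genes were also tested by exact permutation over 20 labellings, without regard to the replicate number. Levels across tables were described in RPM (reads per 1000000 reads on genes), with 10 as the minimum mean. Alternatives covered the block, pseudocount, minimum, scaling, trend, left-out replicates, edgeR 4.0.16 and DESeq2 1.42.0.

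Named were the 10 members, Ets1, Grk2, up to 5 called genes per direction of each pathway list (the largest changes), and the 5 genes most correlated with Nfkbia and with Tnfaip3. Members, lists and tests were chosen with earlier results of these data known. The authors' tables of fold changes, p-values and pathway terms hold their own comparisons and were not used, nor were 8 columns of human values, which matched no sample label.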

Additional observations from a re-analysis of the deposited data

Results flagged for a closer look

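Some genes of the pathway lists differed in their KO effect between tables by the test of the difference itself (limma on log2 ratios of same-numbered libraries, 3 ratios a side, adjusted over all genes tested). For Ccl4 the log2 effect of Ets1-KO in the parenchyma exceeded its spleen effect by 1.57 (SE 0.20, adjusted p = 6.52e-06), and this excess was 1.03 for Ccl3 (SE 0.21, adjusted p = 0.00408) and 0.72 for Il2ra (SE 0.14, adjusted p = 0.00347). In the spleen, the effect of Ets1-KO lay above that of Grk2-KO by 1.39 for Ccl5 (SE 0.16, adjusted p = 9.16e-07) and by 0.74 for Prkcq (SE 0.16, adjusted p = 0.00926). The spleen effects of Ets1-KO behind the first 3 differences were not called, at −0.93 for Ccl4 (adjusted p = 0.161, from 23.0, 34.4 and 26.6 normalized counts in NT and 18.5, 12.4 and 11.9 in KO), −0.44 for Ccl3 (adjusted p = 0.386) and −0.10 for Il2ra (adjusted p = 0.793), beside parenchyma effects of 0.64, 0.60 and 0.62. Behind the last 2, the effects of Ets1-KO and Grk2-KO in the spleen were 0.80 and −0.59 for Ccl5, and 0.34 (adjusted p = 0.194) and −0.39 for Prkcq. All 5 failed without the variance trend, with adjusted p values of 0.14 to 0.278. Ccl4 passed in 9 of 10 alternatives, Ccl3 and Il2ra in 9 of 11, Ccl5 in 10 of 11 and Prkcq in 7 of 11. Leaving out replicate 3 took Ccl3 to an adjusted p of 0.0905, leaving out replicate 1 took Il2ra to 0.0936, and leaving out replicate 1 or replicate 2 took Prkcq to 0.217 or 0.165. Among the NF-κB genes, 0 of the 8 tested between tissues and 0 of the 7 tested between Ets1 and Grk2 differed in this way, beside 2.1% and 1.94% of all genes.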

How the results depend on the processing

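Of 460 recomputed values for the NF-κB genes (40 gene comparisons), 428 kept their direction and side of the threshold, 10 lost the call (all Nfkb1 in the parenchyma), 1 gained it and 21 changed sign. The count of called members in the parenchyma went from 1 to 0 with no replicate block, no filter, quantile normalization, upper quartile scaling, no trend, edgeR, DESeq2 and each left-out replicate (0 to 0), and the cause was not tested. In the spleen it ranged from 0 to 1 over left-out replicates for Ets1-KO.

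The sign changes were all in uncalled results. In the parenchyma, Rela was 0.0063 with quantile normalization and 0.00038 with DESeq2, and Nfkbia −0.00073 with quantile normalization. Over left-out replicates the log2 fold changes ranged in the parenchyma from −0.10 to 0.26 for Nfkb2, −0.071 to 0.0050 for Rela, −0.059 to 0.081 for Nfkbia, −0.38 to 0.14 for Nfkbiz, −0.20 to 0.57 for Tnfaip3 and −0.077 to 0.30 for Bcl3. In the Ets1 spleen table they ranged from −0.082 to 0.96 for Nfkb2, −0.34 to 0.21 for Rela, −0.94 to 0.14 for Nfkbid, −0.16 to 0.30 for Nfkbiz and −0.14 to 0.0086 for Ets1, and in the Grk2 table from −0.12 to 0.15 for Rela. Differences between tissues ranged from −1.06 to 0.20 for Nfkb2 and −0.20 to 0.27 for Rela, and those between Ets1 and Grk2 from −0.76 to 0.19 for Rel, −0.47 to 0.33 for Rela and −0.31 to 0.12 for Nfkbiz.

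Counts over all genes moved more. In the parenchyma the 366 calls became 200 with no replicate block, 212 with no filter, 3 without the trend, 86 with DESeq2 and 163 to 277 over left-out replicates. In the Ets1 spleen table the 155 became 71 with no replicate block, 242 with no filter, 0 without the trend (785 at an unadjusted p under 0.05), 238 with edgeR, 54 with DESeq2 and 3 to 232 over left-out replicates, with 3 when replicate 1 was left out. In the Grk2 table the 109 became 19 with no replicate block, 60 with the minimum of 50, 0 without the trend (571 unadjusted), 12 with DESeq2 and 6 to 50 over left-out replicates. The 137 differences between tissues became 47 with no replicate block, 2 without the trend and 28 to 112 over left-out replicates, and the 126 between Ets1 and Grk2 became 43, 0 (749 unadjusted) and 19 to 57. The share of calls that were higher was 43.4% in the parenchyma and 53.6% with quantile normalization, 45.8% and 56.8% with upper quartile scaling in the Ets1 spleen table, 59.6%, 44.2% with quantile normalization and 45.7% with upper quartile scaling in the Grk2 table, and 37.3% and 49.3% with upper quartile scaling for Ets1 against Grk2.

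Deviations of same-numbered libraries from their group means correlated by −0.00299 to 0.175, not above 0.1 in every pair, and 7 of 9 pairs correlated best with their own number, so these correlations alone do not show that the numbers pair the libraries, and the labels do not tie them to animals. For the named pathway genes and the edited genes Ets1 and Grk2, 72 of 322 recomputed values lost the call, 23 of them without the trend and 26 over left-out replicates. The count of members without overlap between parenchyma and spleen controls of the Ets1 libraries was 5, and 6 to 7 under other scalings, with the Grk2-table controls or over left-out replicates, but 2 against all 6 spleen controls together, and every log2 level ratio kept its sign under TMM scaling and without mitochondrial genes. Depth limited Relb, Tnfaip3 and Nfkbid most, at 0 to 33 reads per library.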
